A study of Mus musculus with 2 samples.

Results

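The genes described here are the mouse models of the partners of the PML/RARa fusion, Pml and Rara, the other retinoic acid receptors Rarb and Rarg, the retinoid X receptors Rxra, Rxrb and Rxrg, and Dhrs3, Cd38 and Tgm2, genes known to respond to retinoic acid. They were taken by gene symbol, which gave 10 of the 34745 gene models in the files. RNA-seq had been done on haematopoietic stem and progenitor cells of C57BL/6 mice, with 1 library of cells given the form of the fusion labelled 2KR and 1 library of cells given the wild-type fusion (WT). The series title speaks of 2 lysines of PML/RARa, without a source here saying which residues these are. Cells of both libraries came from femurs of mice given 5-fluorouracil, which spares quiescent progenitors, and were enriched with a progenitor isolation kit. Both were transduced by lentivirus, grown with SCF, IL-3, IL-6, hydrocortisone and fetal bovine serum, and the transduced cells were sorted. Polybrene was at 6 ug per ml, and the time given was 24 h after infection, for both libraries. The labels do not say how many mice went into a library, nor the species of the fusion's coding sequence, and the empty vector (pMSCV) arm was not analysed here.

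Retinoic acid receptors bind DNA as pairs with a retinoid X receptor, on repeats of a short core sequence. Without ligand the pair holds corepressors such as NCOR on its targets, and with retinoic acid it exchanges them for coactivators. PML is the scaffold protein of nuclear bodies. Its fusion to RARA blocks the maturation of promyelocytes, and in human acute promyelocytic leukaemia treatment with retinoic acid releases that block. Rarb is a textbook target of its own receptor family, since its promoter carries a retinoic acid response element.

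That element can be read in the reference sequence. RefSeq promoter windows (GRCm38.p6, 250 bases before to 50 after a start site) were matched by symbol for 9 of the 10 genes, with 18 windows in all; Tgm2 had none. The core was searched on both strands in 4 spellings. The first was AGGTCA, the second AGTTCA, the third GGGTCA and the fourth GGTTCA. Direct repeats of any pair of these were searched with spacings of 1, 2 or 5 bases; their matches contain matches of the core. The single core was present in 8 of the 18 windows, and in 43.7% of the 32851 windows of all genes. A direct repeat was found in 1 of the 18, that of Rarb, with a spacing of 5, which 0.0974% of all windows hold. Its letters, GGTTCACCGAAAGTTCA, lie from 53 to 37 bases before the start. The Rarb window is shown because this gene carries the repeat and had 0 counts in both libraries. Those of Dhrs3 (the first of its 3) and Cd38 are shown because these genes were higher in 2KR. Capitals mark the core and, in Rarb, the whole repeat.
Rarb, chr14:16575427-16575726, minus strand: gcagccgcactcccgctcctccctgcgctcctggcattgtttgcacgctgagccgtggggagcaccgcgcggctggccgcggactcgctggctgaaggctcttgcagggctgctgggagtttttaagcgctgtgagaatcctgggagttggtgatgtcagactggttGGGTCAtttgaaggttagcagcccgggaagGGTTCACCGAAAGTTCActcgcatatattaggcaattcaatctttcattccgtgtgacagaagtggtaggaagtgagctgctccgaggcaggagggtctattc
Dhrs3, chr4:144892577-144892876, plus strand: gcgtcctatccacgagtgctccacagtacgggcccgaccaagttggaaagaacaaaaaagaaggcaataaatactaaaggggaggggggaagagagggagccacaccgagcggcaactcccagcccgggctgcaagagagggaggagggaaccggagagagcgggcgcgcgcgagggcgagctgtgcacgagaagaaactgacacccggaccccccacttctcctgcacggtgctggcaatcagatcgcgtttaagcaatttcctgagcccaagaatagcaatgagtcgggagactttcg
Cd38, chr5:43868559-43868858, plus strand: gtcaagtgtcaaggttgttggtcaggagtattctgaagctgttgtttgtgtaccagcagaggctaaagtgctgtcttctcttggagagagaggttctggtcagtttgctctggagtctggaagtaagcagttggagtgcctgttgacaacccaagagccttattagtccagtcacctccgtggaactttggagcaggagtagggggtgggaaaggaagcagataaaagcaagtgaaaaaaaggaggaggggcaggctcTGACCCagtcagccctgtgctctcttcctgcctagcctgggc
In the Dhrs3 windows no core was found, and in that of Cd38 1 core lies 9 to 14 bases after the start, on the minus strand. A match is a description of letters, and the absence of one speaks only of this window.

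The libraries held 20462011 counts in 2KR and 17606168 in WT. Counting error is small for genes with many counts and large for those with few, some tested genes among them. With 1 library per form there is no replicate error, no test was run, and every difference describes these libraries only. Intervals given in brackets are exact 95% intervals that cover counting error alone. All 12 progenitor markers, Kit, Cd34 and Ptprc among them, were read in both libraries, and 0 of them differed 2-fold. Some differed by less, in both directions. Ratios of 2KR over WT were 1.865 (1.81 to 1.92) for Cd34 and 1.81 (1.58 to 2.08) for Flt3. They were 0.66 (0.64 to 0.67) for Gata2 and 0.66 (0.62 to 0.70) for Ly6a. Of 8 mast cell and basophil markers 6 were tested by the 2-fold rule given below, with 4 lower in 2KR and 1 higher. By that rule 4.56% of all tested models were lower and 2.66% higher. The 8 markers summed to 3353.9 CPM (counts scaled to library size) in 2KR and 6419.7 CPM in WT, with Fcer1a at 0 in both. Cpa3 alone made up most of this sum, with 2525.4 CPM in 2KR and 5467.9 CPM in WT. The higher marker was Mcpt8, with 449.8 CPM in 2KR and 190.1 CPM in WT. Monocyte and macrophage markers summed to 118.2 CPM in 2KR and 260.9 CPM in WT, with 2 of the 6 tested lower and 0 higher. The 2 lower ones, Ccr2 and Cx3cr1, made up most of both sums. The defining receptor gene of these cells, Csf1r, had 12 counts in 2KR and 10 in WT and was not tested. Neutrophil markers summed to 38.2 CPM in 2KR and 17.6 CPM in WT, and lymphoid ones to 6.07 CPM in 2KR and 36.3 CPM in WT. Erythroid ones summed to 342.5 CPM in 2KR and 225.5 CPM in WT. Most of the neutrophil sum was Mpo, with 36.0 CPM in 2KR and 16.2 CPM in WT. Most of the erythroid sum was Tfrc, with 315.4 CPM in 2KR and 206.7 CPM in WT. In WT most of the lymphoid sum was Il7r, with 31.3 CPM against 0.582 CPM in 2KR. Stromal and endothelial markers, mostly Pecam1 and Pdgfrb, summed to 1144.7 CPM in 2KR and 1108.9 CPM in WT. In bulk RNA fewer cells of a type and less RNA per cell cannot be told apart, and the part of these cell types in the results below was not tested.

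Pml and Rara were read at moderate levels in both libraries and were somewhat higher in 2KR. Pml (ENSMUSG00000036986, chromosome 9, 58218076 to 58249786 in GRCm38) had 1487 counts in 2KR and 931 in WT, or 4.65 FPKM in 2KR and 3.38 FPKM in WT. FPKM is the deposited value, scaled to gene length and library total. After scaling between libraries the Pml ratio of 2KR over WT was 1.36 (1.25 to 1.47). Rara (ENSMUSG00000037992, chromosome 11, 98927818 to 98974942) had 2107 counts in 2KR and 1455 in WT, or 18.1 FPKM in 2KR and 14.5 FPKM in WT, with a ratio of 1.23 (1.15 to 1.31). Neither interval holds 1, and neither ratio is rare in these data: 25% of the 12466 tested gene models had a log2 ratio at least as large in size as that of Pml, and 38.3% one as large as that of Rara. The files have no model for the introduced fusion, so these rows can hold its reads as well as those of the mouse genes, and this was not tested.

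The remaining retinoic acid receptors had lower levels than Rara in both libraries, or no counts. Rarg (ENSMUSG00000001288, chromosome 15, 102234938 to 102257517), the receptor known to favour stem cell maintenance in mice, had 494 counts (4.28 FPKM) in 2KR and 384 counts (3.87 FPKM) in WT, a ratio of 1.09 (0.953 to 1.25) whose interval holds 1. Rarb (ENSMUSG00000017491, chromosome 14, 16430842 to 16575472) had 0 counts in 2KR and 0 in WT. By a one-sided limit, which differs from the two-sided intervals given elsewhere, a count of 0 allows up to 3 counts, which is 0.146 CPM in 2KR and 0.172 CPM in WT. Of the 50-base words of the Rarb transcripts in GENCODE M21, 34.1% also occur on either strand in transcripts of Top2b, which ends beside it, or of Gm48162, so reads from those stretches could be left out or given to another gene by the authors' counting. Rara thus made up 80.8% of the summed FPKM of this family in 2KR and 79.0% in WT, with Rarg the rest. The Rara row can hold reads of the fusion, so this share may not be of the mouse gene alone.

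Rxra was the most abundant of the 10 genes in both libraries. Rxra (ENSMUSG00000015846, chromosome 2, 27676440 to 27762957), the partner receptor of most myeloid nuclear receptor pairs, had 3741 counts (22.1 FPKM) in 2KR and 3439 counts (23.6 FPKM) in WT. Its ratio was 0.923 (0.881 to 0.967), a small difference in the direction opposite to that of Rara. Rxrb (ENSMUSG00000039656, chromosome 17, 34031812 to 34038393) had 978 counts (6.78 FPKM) in 2KR and 819 counts (6.60 FPKM) in WT, a ratio of 1.01 (0.923 to 1.11). Rxrg (ENSMUSG00000015843, chromosome 1, 167598384 to 167639623), the form found mainly in muscle and brain, had 0 counts in both. Rxra made up 76.5% of the RXR FPKM in 2KR and 78.1% in WT. Summed over each family, the counts gave a ratio of 1.20 (1.13 to 1.27) for the RARs. For the RXRs the ratio was 0.940 (0.902 to 0.980). Deposited RXR FPKM exceeded deposited RAR FPKM by 1.29-fold in 2KR and by 1.64-fold in WT. These 2 values depend on the gene lengths used, and the RAR side can hold reads of the fusion.

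**Figure D1:**
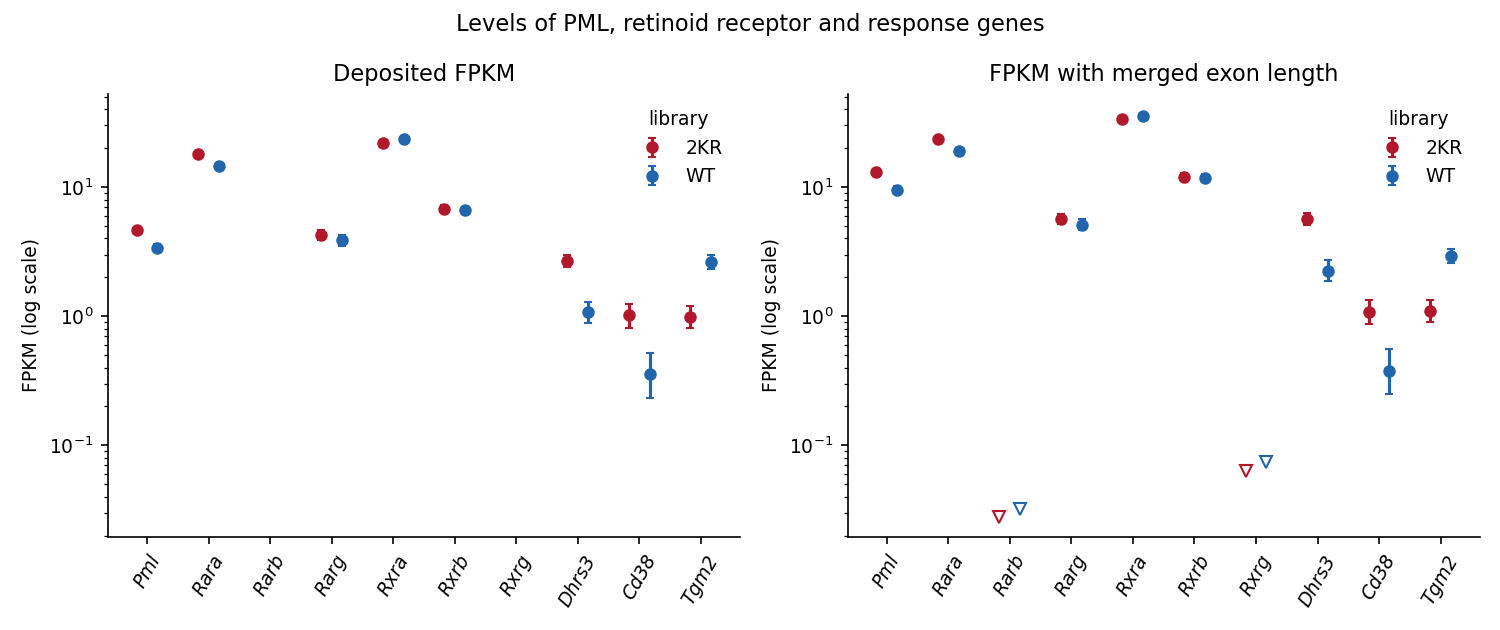
FPKM of the 10 genes in the 2KR (red, left) and WT (blue, right) libraries on a log axis, as deposited (left panel) and with the length of merged exons (right panel); bars are exact 95% Poisson intervals of the counts, and open triangles mark the level of 3 counts for genes with 0 counts, which the left panel leaves out. Rxra and Rara stand highest in both libraries, and the libraries lie farthest apart for Dhrs3, Cd38 and Tgm2.

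The order of levels between genes depended on the gene length behind FPKM. For 68.0% of 13235 models with at least 10 counts in 2KR and an identifier in GENCODE M21, the length implied by count and FPKM was equal, within 0.1%, to the sum of all distinct exons, so that overlapping exons of different transcripts were counted more than once. For Pml, with 28 distinct exons, this length was 15.6 kb against 5.57 kb once overlaps were merged, a ratio of 2.81, the largest among the 8 genes with counts. The ratio was 2.10 for Dhrs3, 1.30 for Rara and 1.07 for Cd38. With merged exons Pml had 13.04 FPKM (12.4 to 13.7) in 2KR and 9.49 FPKM (8.89 to 10.1) in WT. By the same lengths RXR FPKM exceeded RAR FPKM by 1.555-fold in 2KR and by 1.974-fold in WT. By merged length the order in 2KR was Rxra, Rara, Pml, Rxrb, Rarg, Dhrs3, Tgm2 and Cd38, and the counting intervals of Pml and Rxrb, of Rarg and Dhrs3 and of Tgm2 and Cd38 overlapped. In WT the order was Rxra, Rara, Rxrb, Pml, Rarg, Tgm2, Dhrs3 and Cd38, and only Tgm2 and Dhrs3 overlapped with their neighbour. By deposited FPKM Pml stood level with Rarg in both libraries, with overlapping intervals. The length is the same in both files, so no ratio of counts or CPM between the libraries depends on it. A ratio of FPKM + 1 does, since the length sets how much the added 1 weighs.

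The 3 response genes differed more than the receptors did, and not all in the same direction. Dhrs3 (ENSMUSG00000066026, chromosome 4, 144892827 to 144928209), which encodes an enzyme that turns retinaldehyde back into retinol and is induced by retinoic acid, had 337 counts (2.68 FPKM) in 2KR and 116 counts (1.07 FPKM) in WT. It was 2.46-fold higher in 2KR (1.99 to 3.07). Cd38 (ENSMUSG00000029084, chromosome 5, 43868553 to 43912375), an NAD-consuming surface enzyme that retinoic acid induces in human myeloid leukaemia cells, had 86 counts (1.01 FPKM) in 2KR and 26 counts (0.356 FPKM) in WT. It was 2.81-fold higher in 2KR (1.79 to 4.54), from few reads. Both intervals reach below 2-fold.

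Tgm2 went the other way. Tgm2 (ENSMUSG00000037820, chromosome 2, 158116402 to 158146436), the tissue transglutaminase, which retinoic acid induces in human promyelocytic leukaemia cells, had 104 counts (0.991 FPKM) in 2KR and 237 counts (2.62 FPKM) in WT. It was 2.69-fold lower in 2KR (2.12 to 3.42). The model overlaps Rprd1b of the opposite strand over 15.9 kb, and 18.7% of the 50-base words of Tgm2 transcripts also occur in Rprd1b or Gm20412. Rprd1b was 1.46-fold higher in 2KR (1.27 to 1.69), opposite to Tgm2, and Gm20412 had 0 counts in both libraries. The part of shared reads in the Tgm2 ratio was not tested. For the other genes described here, Rarb aside, at most 1.34% of the words were shared with another gene.

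**Figure D2:**
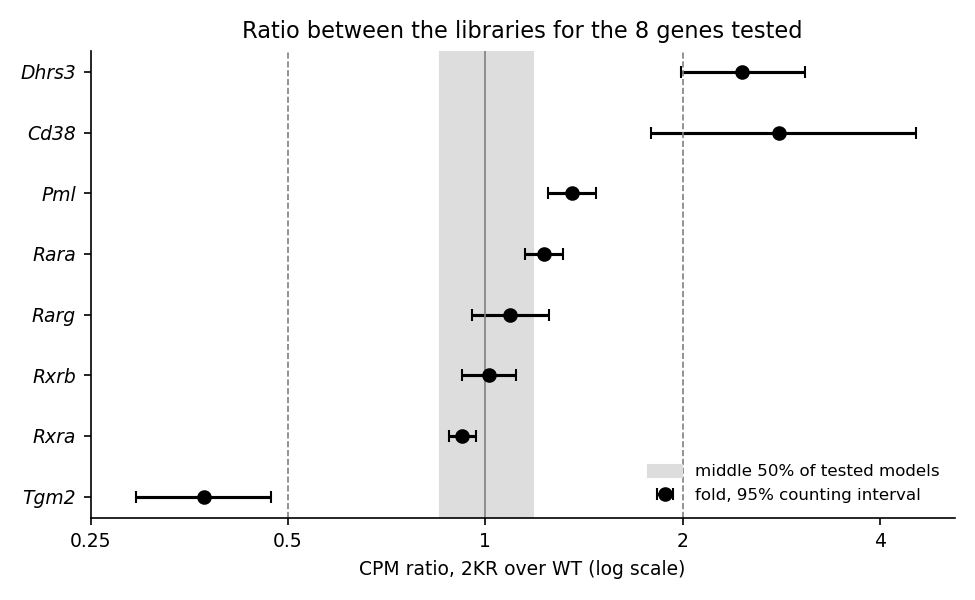
CPM ratio of 2KR over WT on a log axis for the 8 genes that passed the 1 CPM filter; bars are exact 95% counting intervals, dashed lines mark 2-fold, and the grey band is the interquartile range of all tested models. Dhrs3 and Cd38 lie above 2-fold, Tgm2 lies below, and the 5 others lie within 1.5-fold.

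By a size rule of at least 2-fold in CPM + 1, applied where the mean of both libraries reached 1 CPM, 3 of the 8 tested genes differed: 2 of them, Dhrs3 and Cd38, were higher in 2KR and 1, Tgm2, was lower. Among all 12466 tested models 7.22% differed by this rule, 2.66% higher and 4.56% lower in 2KR. The genes described here were chosen with earlier results of these data known, so nothing is concluded from this comparison of shares. Rarb and Rxrg did not pass the filter. The median log2 ratio of the 8 was 0.21, against 0.02 for all tested models, whose quartiles were -0.21 and 0.23. The log2 ratios of CPM + 1 were 1.19 for Dhrs3, 1.06 for Cd38 and -1.27 for Tgm2, and 5.32%, 6.48% and 4.70% of tested models had a ratio at least as large in size. With a pseudocount of 5 CPM, or on deposited FPKM + 1, none of the 8 passed the rule. The log2 ratio of Cd38 was then 0.50 with the pseudocount of 5 CPM and 0.57 on FPKM + 1, and those of Dhrs3 and Tgm2 lay between 0.83 and 0.89 in size.

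**Figure D3:**
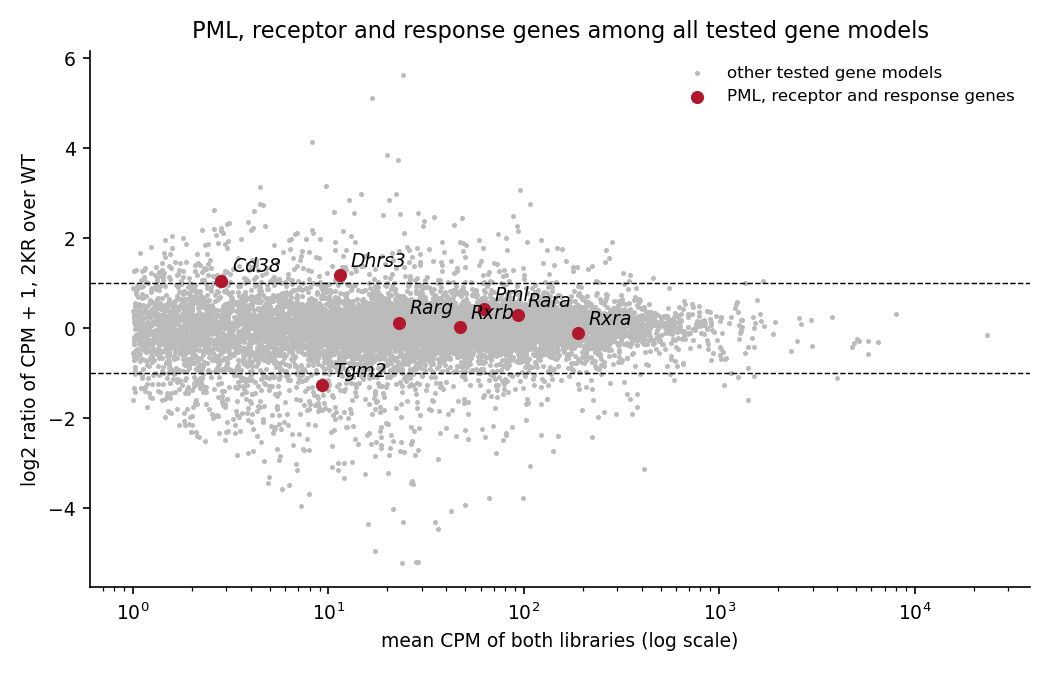
Log2 ratio of CPM + 1, 2KR over WT, against the mean CPM of both libraries (log axis) for all 12466 tested gene models (grey) and for the 8 tested genes described here (red); dashed lines mark 2-fold. The receptors and Pml lie inside the bulk of models, and Dhrs3, Cd38 and Tgm2 lie at low levels just beyond 2-fold.

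The chromosomal surroundings of the 10 genes were read by the same rule, and nothing is concluded from so small a count. Of 71 other models within 100 kb of one of them, 42 were tested, 1 was at least 2-fold higher and 0 were lower, against 7.22% of all tested models. That model was Islr, an immunoglobulin-like secreted protein gene 58.9 kb from Pml, with 51 counts in 2KR and 10 in WT, 4.33-fold higher (2.17 to 9.56). Stra6, the retinol transporter gene in the same region, and Bst1, the paralogue of Cd38 beside it, had 0 counts in both libraries.

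Lists of genes around the retinoid pathway, other than the 10, were then read by the same rule. Over the 7 lists 152 genes were in the files and 99 were tested. At least 2-fold differences were seen in 15 of them (15.2%), 3 higher and 12 lower in 2KR, beside 7.22% of all models, and the median log2 ratio was -0.01. The lists were chosen with earlier results of these data known, so nothing is concluded from the larger share. Up to 4 tested genes with the largest ratio and the 2 with the highest level are named for each list.

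Of 25 genes that make, carry or break down retinoic acid, 12 were tested, with 0 higher and 2 lower, and the median log2 ratio was 0.04. Dhrs9, a retinol dehydrogenase gene, had 13.3 CPM in 2KR and 43.3 CPM in WT, 3.26-fold lower (2.83 to 3.75). Aldh1a3, which makes retinoic acid from retinaldehyde, had 4 counts in 2KR and 35 in WT, 10.3-fold lower (3.69 to 39.9). Fabp5, a lipid carrier that also binds retinoic acid, had 191.5 CPM in 2KR and 118.1 CPM in WT, a ratio of 1.62 (1.54 to 1.71). The ratios of the retinol dehydrogenase genes Rdh5 and Rdh11 were 1.23 (0.899 to 1.68) and 0.928 (0.850 to 1.01). Cyp26a1, the retinoic acid hydroxylase gene most sharply induced by retinoic acid, had 1 count in 2KR and 0 in WT, and Stra6, Rbp7, Crabp1 and Cyp26c1 had 0 in both; these were chosen after their values were seen.

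Of 37 genes known to respond to retinoic acid or to the maturation it causes in myeloid cells, 26 were tested, with 2 higher and 4 lower, and the median was -0.15. Icam1, an adhesion receptor gene, had 22.1 CPM in 2KR and 5.15 CPM in WT, 4.30-fold higher (3.42 to 5.45). Ncf4, a subunit of the phagocyte oxidase, had 40 counts in 2KR and 8 in WT, 4.24-fold higher (1.96 to 10.5). On the lower side were Hoxb4, a homeobox gene of progenitors, by 4.25-fold (3.41 to 5.35), Id1 by 2.36-fold (1.93 to 2.88), and the C/EBP factor genes Cebpd by 5.91-fold (4.87 to 7.23) and Cebpb by 3.92-fold (2.97 to 5.23). Ncf4 and Id1 stand outside the naming rule and complete the count. The most abundant genes of the list had ratios of 1.56 (1.51 to 1.61) for Cdkn1a and 0.608 (0.586 to 0.631) for Id2. Cebpe, a late granulocyte factor, had 7 counts in 2KR and 16 in WT, and Itgam, the CD11b chain, had 4 counts in 2KR and 3 in WT; both did not pass the filter and were chosen after their values were seen.

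Other nuclear receptors are the company that RXR keeps. Of 13 receptors that pair with RXR, 7 were tested, with 0 higher and 1 lower and a median of 0.15. The lower one was Nr4a1, an orphan receptor gene of the early response, with 17.6 CPM in 2KR and 125.5 CPM in WT, 7.13-fold lower (6.37 to 7.98). Its relative Nr4a2 had a ratio of 0.583 (0.480 to 0.707). Vdr, the vitamin D receptor gene, had 54 counts in 2KR and 22 in WT, a ratio of 2.08 (1.25 to 3.59) that stayed under the rule because of the pseudocount. The ratios of the liver X receptor genes were 0.566 (0.304 to 1.03) for Nr1h3 and 1.11 (1.04 to 1.19) for Nr1h2.

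Of 29 nuclear receptors outside the RXR partners, 13 were tested, with 0 higher and 3 lower and a median of -0.08. Pgr, the progesterone receptor gene, had 168 counts in 2KR and 2184 in WT, or 8.15 CPM in 2KR and 124.9 CPM in WT, which is 15.3-fold lower (13.1 to 18.0). Esrrb had 12 counts in 2KR and 42 in WT, 4.12-fold lower (2.13 to 8.61), and the oestrogen receptor gene Esr1 had a ratio of 0.600 (0.504 to 0.714). The medium of both libraries held hydrocortisone, a ligand of the glucocorticoid receptor. Its gene Nr3c1 had a ratio of 1.05 (0.985 to 1.12) and Nr2c2 one of 0.943 (0.889 to 1.00).

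All 20 corepressor and coactivator genes of the receptors were tested, with 1 higher, 0 lower and a median of -0.04. Tbl1xr1, a subunit of the NCOR corepressor complex, had 3380 counts in 2KR and 741 in WT, or 164.0 CPM in 2KR and 42.4 CPM in WT, which is 3.87-fold higher (3.57 to 4.2). Its paralogue Tbl1x had a ratio of 1.45 (1.38 to 1.51). The scaffold gene Ncor1 had a ratio of 1.07 (1.03 to 1.10), the deadenylase scaffold gene Cnot1 one of 1.17 (1.13 to 1.20), and the coactivator genes Crebbp and Ncoa1 had ratios of 0.597 (0.558 to 0.638) and 0.682 (0.601 to 0.774).

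Tbl1xr1 is also known as a partner of RARA in a rare leukaemia fusion. Of 12 such partners other than PML, all were tested, with Tbl1xr1 higher and Zbtb16 lower and a median of 0.06. Zbtb16, the PLZF repressor gene, had 44.4 CPM in 2KR and 94.3 CPM in WT, 2.12-fold lower (1.96 to 2.30). Npm1 had a ratio of 1.46 (1.43 to 1.5), Irf2bp2 one of 0.716 (0.679 to 0.754) and Prkar1a, which had the highest mean CPM of the list, one of 1.05 (1.03 to 1.07).

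The last list held 18 relatives of Tgm2 and of Cd38 and enzymes of NAD supply, of which 10 were tested, with 0 higher and 1 lower and a median of -0.01. F13a1, the coagulation factor XIII transglutaminase gene, which is also a macrophage gene, had 115 counts in 2KR and 541 in WT, 5.54-fold lower (4.53 to 6.84), in the direction of Tgm2. Epb42, an erythroid member of the family, had 63 counts in 2KR and 23 in WT, a ratio of 2.32 (1.42 to 3.93) under the rule because of the pseudocount. Among NAD genes, Nampt had a ratio of 1.16 (1.10 to 1.22), Nmnat3 one of 1.77 (1.29 to 2.43) and Sirt1 one of 0.676 (0.629 to 0.727).

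**Figure D4:**
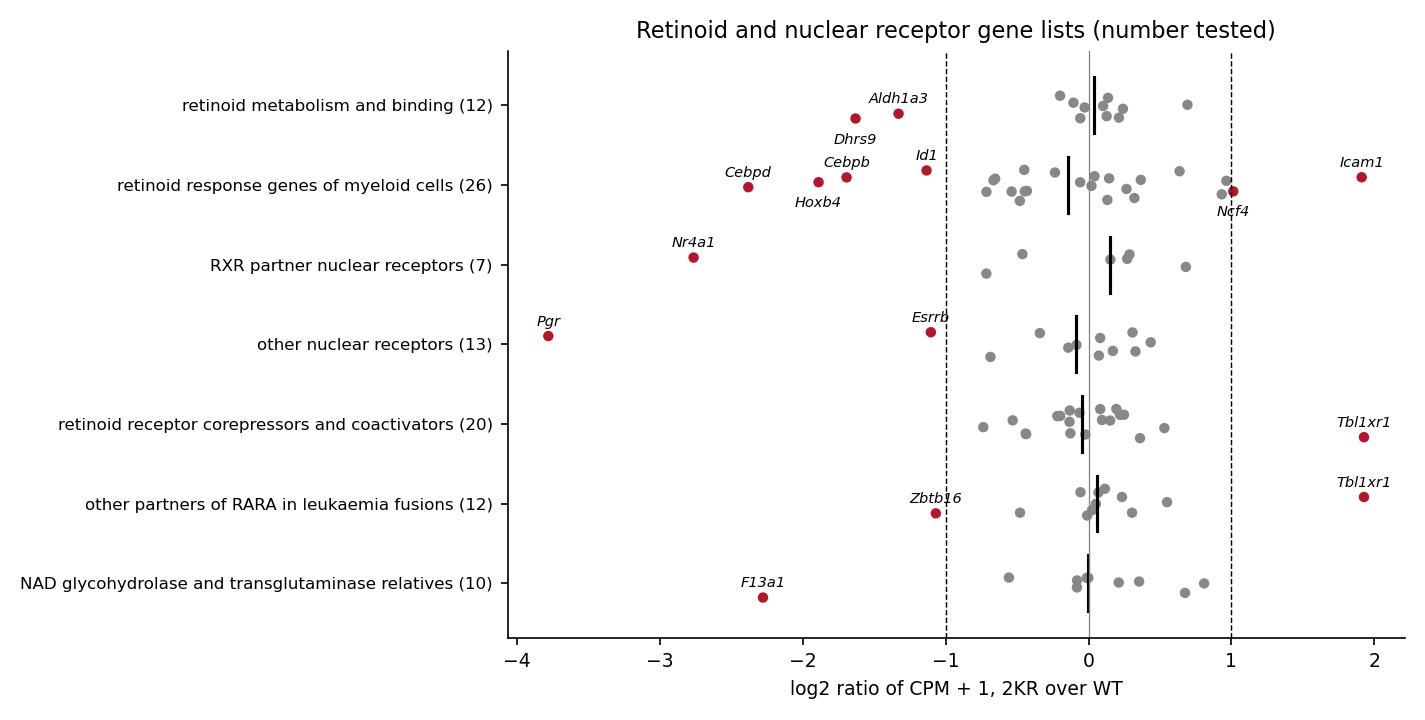
Log2 ratio of CPM + 1, 2KR over WT, for the tested genes of 7 lists, with 1 point per gene, list medians as black bars, dashed lines at 2-fold and names for genes beyond it (red); points are jittered vertically, and 1 tested gene of the other nuclear receptors is not shown. List medians lie between -0.15 and 0.15, and of the named genes Icam1, Ncf4 and Tbl1xr1 lie on the higher side.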

How the data were processed

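HISAT2 2.0.4 and the GRCm38 build are named in the submitters' processing notes. No source used here gives the counting program, the annotation release or whether strand was used. Each deposited file lists, per the file headers, the count of reads and the FPKM of every gene model. The deposited FPKM equalled count over a fixed length and library total, within 0.1%, in 15403 of the 15403 models that both libraries detected.

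Counts were scaled by TMM (edgeR 4.0.16, R 4.3.3; factors 1.007 for 2KR and 0.993 for WT) to CPM. Folds are CPM ratios with exact Clopper-Pearson intervals of the counts, and levels have exact Poisson intervals. No test was possible, since each form has 1 library. A model averaging 1 CPM or more was called when its log2 ratio of CPM + 1 was at least 1 in size. This rule and the intervals were run on simulated Poisson counts. The simulation held no variation between cultures, so it speaks of counting error alone. Merged exon lengths, strands and 50-base words came from GENCODE M21, which shares 34267 identifiers with the files, and promoters from RefSeq. For a symbol with several models, the one that GENCODE M21 gives that symbol was used. Alternatives were other pseudocounts, scalings (DESeq2 1.42.0 size factors among them), filters, a 1.5-fold rule and FPKM. Python 3.11.15 ran scipy 1.17.1, pandas 2.3.3, matplotlib 3.10.9 and numpy 2.4.6.

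The genes and lists were chosen with earlier results of these data known. Genes of each list were named by a fixed rule: the 4 with the largest ratio and the 2 with the highest level. A gene that this rule names is counted but not reported here.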

Additional observations from a re-analysis of the deposited data

How the results depend on the processing

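Over 48 recomputed ratios of the 8 tested genes none changed direction among those called, and 44 shifted by less than the distance from the CPM ratio to its counting limit on that side. The other 4 were those of Dhrs3 and Tgm2 with a pseudocount of 5 CPM, at 0.88 and -0.89 (log2), and on deposited FPKM + 1, at 0.83 and -0.86. Cd38, whose counting interval is wide, was at 0.50 and 0.57 under the same settings, both below the lower limit of its CPM ratio. Of the 8 genes, 0 passed the 2-fold rule in either direction under those 2 settings, and with a mean of at least 5 CPM Cd38 was no longer tested, which left 1 higher. Over all models 444 passed with a pseudocount of 5 (147 higher, 297 lower), 448 on FPKM (166 higher, 282 lower), 584 with a mean of at least 5 CPM (207 higher, 377 lower) and 2068 at 1.5-fold (863 higher, 1205 lower), against 900 by the main rule (331 higher, 569 lower). Of the listed genes 28 passed at 1.5-fold, against 15. The median of the myeloid response list was -0.45 with a mean of at least 5 CPM and 0 without a filter. Levels per kilobase on merged exons, an alternative chosen after seeing the data, exceeded the deposited FPKM by 1.07-fold for Cd38 up to 2.81-fold for Pml. Under every scaling tried the median log2 ratio of all models stayed between 0.01 and 0.04. No paired analysis was possible because each form has 1 library. Depth limits Rarb and Rxrg, which at 3 counts could reach 0.146 CPM in 2KR and 0.172 CPM in WT, and variation between cultures was not measured.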
